A study of Mus musculus with 14 samples.

Results

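Integrins and cadherins are the receptors with which lung cells hold on to the matrix and to each other. The 77 genes described here are those whose platform annotation symbol starts with Itga, Itgb, Cdh followed by a digit, or Pcdh, out of 18194 genes with a probe set. Itgal, Itgam, Itgb6, Itgb8, Cdh5 and the integrin-binding protein genes Itgb1bp and Itgb3bp were not included. There were 22 integrin genes, 20 cadherin genes and 35 protocadherin genes. For each gene the probe set with the highest mean over 14 arrays was read, and 39 of the 77 genes passed a filter on low values.

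Integrins are pairs of an alpha and a beta chain that span the membrane, bind matrix proteins or counter-receptors outside, and are tied to the actin cytoskeleton through talin, kindlin and the focal adhesion proteins inside. Classical cadherins bind the same cadherin on a neighbouring cell in a calcium-dependent way and are tied to actin through catenins. E-cadherin is the one of epithelial junctions. Protocadherins form a larger and less well understood branch of the cadherin family, best known from neurons, where the clustered genes give single cells an identity.

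Whole mouse lung RNA was hybridised to 14 Affymetrix arrays in 4 groups. Control (n = 4) received PBS, and VALI (n = 4) was ventilated for 4 hours with a high tidal volume, given as 40 ml/kg in the sample labels and as 30 ml/kg in the series text. PBEF+/- (n = 3) is labelled as not ventilated, and VILI PBEF+/- (n = 3) had the same ventilation as VALI. PBEF is pre-B-cell colony enhancing factor, the product of Nampt. The series text speaks of recombinant human PBEF given into the trachea, while the label PBEF+/- reads like a genotype, so the label is used here as it stands. Mice were 18 to 22 weeks old in the first 3 groups and 8 to 12 weeks old in VILI PBEF+/-, so age and the combined condition cannot be told apart there. Strain is not given in the sources used here, and nothing states that each array is a separate mouse, so the p-values reflect array-to-array spread, which may be technical.

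The array labelled VALI replicate 4 and the array labelled PBEF+/- replicate 3 stood with the opposite condition for Il6, a cytokine gene that was high in the other ventilated arrays. Il6 was 2.78 in VALI replicate 4 against 9.60 to 9.85 in the other VALI arrays, and 10.87 in PBEF+/- replicate 3 against 2.10 and 2.56 in the other PBEF+/- arrays. Each comparison is therefore given with all 14 arrays as labelled (the 14-array fit) and again without those 2 arrays (the 12-array fit). The 2 arrays were left out because of their own values, so p-values of the 12-array fit are conditional on that choice. Xist against the Y-linked genes Eif2s3y and Kdm5d gave a male pattern in Control replicates 1 and 4, VALI replicate 4 and PBEF+/- replicate 2, and a female pattern in the other arrays. All ventilated arrays of the 12-array fit thus had the female pattern. Control probe sets for 18S ribosomal RNA averaged 5.18 in VALI replicate 3 and 5.49 in PBEF+/- replicate 2, against 2.93 to 3.73 in the other 12 arrays.

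Of the 77 genes, 32 exceeded the array median in every array, 7 did so in 3 to 13 arrays, 1 in 1 or 2 arrays and 37 in none. Array medians lay between 4.60 and 4.75 on the log2 scale. The alpha and beta integrin chains were the best represented: 11 of 14 alpha chains and all 6 beta chains passed the filter, and the platelet chain Itga2b and the collagen receptors Itga2 and Itga10 were below the median in all 14 arrays. Among cadherins, 3 of 5 type I genes passed (Cdh1, Cdh2 and Cdh4), but only 1 of 10 type II genes, Cdh11. For the clustered protocadherins 8 of 23 passed, and for the non-clustered ones 7 of 12. Itgb4 was below the median in all Control arrays and Pcdh20 in all Control arrays too, so both entered the tests only through arrays in which they were high.

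**Figure D1:**
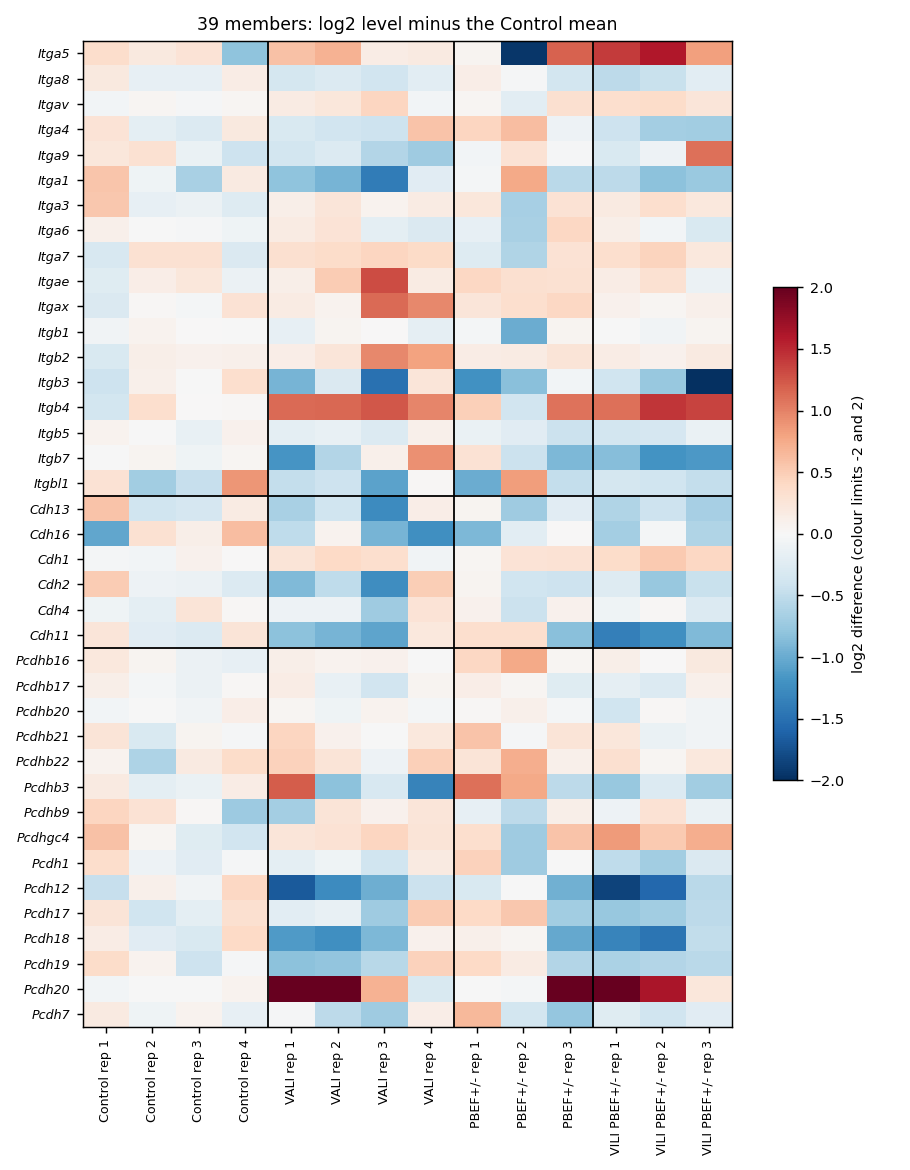
Log2 level of each of the 39 tested genes in each of the 14 arrays, minus the mean of the 4 Control arrays, in colour limits of -2 and 2; horizontal lines separate integrins, cadherins and protocadherins, and vertical lines separate the 4 labelled groups. Cdh11, Pcdh18 and Pcdh12 are blue and Itgb4 is red in VALI replicates 1 to 3, PBEF+/- replicate 3 and the VILI PBEF+/- arrays, while VALI replicate 4 is close to the Control colours for Cdh11 and Pcdh18.

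Cdh11, a mesenchymal cadherin, and Pcdh12, an endothelial protocadherin, were lower in the average of both ventilation responses in both fits. With the sex pattern as a covariate neither was called in the 14-array fit, and VALI replicate 4 had Cdh11 within the Control range. The average of both ventilation responses (VALI against Control and VILI PBEF+/- against PBEF+/-, weighted equally) uses all groups. It thus includes the age difference between VILI PBEF+/- and PBEF+/-. In the 14-array fit 3 of 39 tested genes were called at an adjusted p under 0.05, where 8.36% of all 11360 genes tested were called (4.09% higher and 4.27% lower). The third called gene was Itgb4, which like Pcdh20 in the 12-array fit was tested only because some arrays were high, so neither gene supports a direction for the family. In the 12-array fit 17 of 39 were called, 7 higher and 10 lower, against 39.5% of all genes (14.9% higher and 24.6% lower), so the share called among the adhesion receptors was close to that of the array as a whole. The median difference of the 39 genes was -0.10 with 14 arrays and -0.15 with 12 arrays, against -0.05 and -0.07 over all genes tested. Cdh1, Itga5, Itgav, Itga7, Itgb4, Pcdhgc4 and Pcdh20 rose, and Cdh2, Cdh11, Itga8, Itga4, Itga1, Itgb7, Pcdh12, Pcdh17, Pcdh18 and Pcdh19 fell.

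Single arrays moved the 14-array count. It was 0 without Control replicate 2, VALI replicate 1, 2 or 3, PBEF+/- replicate 1 or 2, or VILI PBEF+/- replicate 1 or 2. It was 1 without Control replicate 1, 3 or 4, 5 without VILI PBEF+/- replicate 3, 11 without VALI replicate 4 and 14 without PBEF+/- replicate 3. With the sex pattern as a covariate the 14-array fit called 0 of 39 genes and 0 genes in all. The 12-array count lay between 15 and 18 when each array outside PBEF+/- was left out in turn, with 3613 to 4550 genes called in all.

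**Figure D2:**
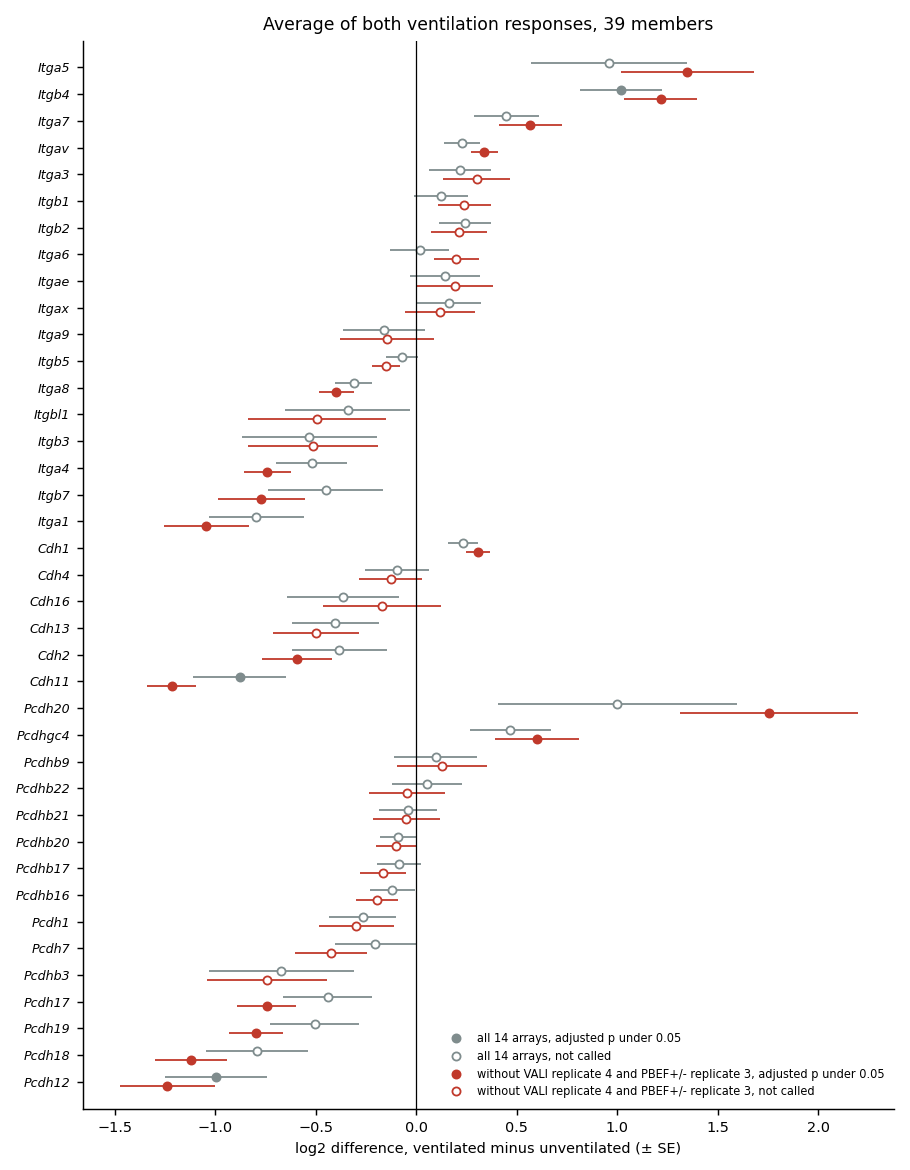
Average of both ventilation responses for the 39 tested genes, as the log2 difference of ventilated minus unventilated arrays with its standard error; grey is the 14-array fit, red the 12-array fit, and filled points passed an adjusted p of 0.05. Cdh11 lies at -1.22 and Itgb4 at 1.22 in the 12-array fit, and no tested gene was called in opposite directions by the 2 fits.

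The alpha chains that read the RGD sequence of fibronectin, vitronectin and nephronectin did not move as 1 group. Itgav, which with its beta partners also activates latent TGF-beta, was 12.08, 12.17, 12.11 and 12.18 in Control, 12.31, 12.37, 12.56 and 12.07 in VALI, 12.18, 11.92 and 12.46 in PBEF+/-, and 12.48, 12.51 and 12.37 in VILI PBEF+/-. The highest unventilated value outside PBEF+/- replicate 3 was 12.18, and every ventilated array except VALI replicate 4 lay above it. The average difference was 0.23 ± 0.09, adjusted p = 0.101 in the 14-array fit and 0.34 ± 0.07, adjusted p = 0.00258 in the 12-array fit. A second Itgav probe set rose by 0.91 ± 0.26 (adjusted p = 0.0208) with 12 arrays. For VALI against Control alone the 12-array call of Itgav (0.28 ± 0.09, adjusted p = 0.0484) ended in 15 of 19 alternatives, so that comparison sits at the threshold.

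Itga5, the alpha chain of the classical fibronectin receptor, was 8.51, 8.37, 8.43 and 7.36 in Control, 8.75, 8.86, 8.32 and 8.34 in VALI, 8.22, 6.22 and 9.34 in PBEF+/-, and 9.56, 9.77 and 8.99 in VILI PBEF+/-. VILI PBEF+/- arrays were high and PBEF+/- replicate 2 and Control replicate 4 were low, while Control and VALI overlapped. The difference of VILI PBEF+/- from PBEF+/- was 1.51 ± 0.58, adjusted p = 0.193 with 14 arrays and 2.22 ± 0.51, adjusted p = 0.00952 with 12 arrays, a 4.66-fold higher level. Without PBEF+/- replicate 2 the difference was 1.22 and adjusted p = 0.0834, with 1 PBEF+/- array left. On a second Itga5 probe set the 12-array average was 1.03 ± 0.19 (adjusted p = 0.00212), against 1.35 ± 0.33, adjusted p = 0.00805 on the first. That average was 0.85 without PBEF+/- replicate 2 and 0.86 (adjusted p = 0.0689) with the sex pattern as a covariate. The same array carried the high 18S signal, and its part in the result was not tested.

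Itga8, which pairs with the beta1 chain and binds nephronectin on mesenchymal cells, was 13.62, 13.27, 13.26 and 13.57 in Control, 13.08, 13.15, 13.04 and 13.21 in VALI, 13.57, 13.41 and 13.06 in PBEF+/-, and 12.90, 12.98 and 13.21 in VILI PBEF+/-. Every VALI array lay below every Control array, and PBEF+/- replicate 3 lay with the ventilated arrays. The average fell short of the threshold in the 14-array fit (-0.31 ± 0.09, adjusted p = 0.0522) and passed it in the 12-array fit (-0.40 ± 0.09, adjusted p = 0.0039). A second Itga8 probe set fell by 0.63 ± 0.13 with an adjusted p of 0.0343 with 14 arrays. Npnt, the gene of its ligand nephronectin, fell as well: its average was -0.29 ± 0.06, adjusted p = 0.0302 with 14 arrays, and no ventilated array overlapped the unventilated ones.

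The 4 integrins with the smallest p in the 14-array average were Itgb4, Itga8, Itga1 and Itga4. Promoter windows are shown for the last 3, since Itgb4 had no entry among the promoter windows used. Each is printed as 300 bases around the start of the gene, most of them upstream, 5′ to 3′ on the strand of the gene, from RefSeq on GRCm38.p6. The Itga8 window is chr2:12301895-12302194 on the minus strand, that of Itga1 is chr13:115101915-115102214 on the minus strand, and that of Itga4 is chr2:79255176-79255475 on the plus strand. Capitals mark a GC box (GGGCGG on either strand), which was found in the Itga4 window.
Itga8: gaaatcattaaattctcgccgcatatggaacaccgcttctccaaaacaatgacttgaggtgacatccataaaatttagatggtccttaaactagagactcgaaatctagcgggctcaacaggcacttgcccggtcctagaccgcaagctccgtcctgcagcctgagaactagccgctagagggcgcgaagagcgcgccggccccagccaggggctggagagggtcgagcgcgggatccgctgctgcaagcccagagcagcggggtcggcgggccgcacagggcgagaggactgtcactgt
Itga1: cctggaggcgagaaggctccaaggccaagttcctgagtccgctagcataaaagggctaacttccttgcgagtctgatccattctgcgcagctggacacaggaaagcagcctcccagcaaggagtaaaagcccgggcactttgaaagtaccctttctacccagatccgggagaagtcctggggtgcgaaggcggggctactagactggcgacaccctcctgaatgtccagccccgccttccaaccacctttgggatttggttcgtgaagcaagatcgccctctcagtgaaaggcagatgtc
Itga4: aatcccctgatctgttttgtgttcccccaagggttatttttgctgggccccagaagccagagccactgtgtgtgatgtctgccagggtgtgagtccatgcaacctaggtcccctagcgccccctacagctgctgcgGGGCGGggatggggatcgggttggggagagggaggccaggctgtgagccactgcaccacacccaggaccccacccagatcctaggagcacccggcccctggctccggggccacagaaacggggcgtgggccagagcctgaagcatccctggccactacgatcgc
The GC content was 59.0% for Itga8, 56.7% for Itga1 and 64.3% for Itga4. The GC box stood in 35.7% of 32851 promoter windows of the same length and in 11 of 18 windows of the tested adhesion receptors with an entry. The AP-1 motif TGANTCA stood in 7.81% of all windows and 3 of the 18, and CACCTG, the E-box that Snail and Zeb repressors bind, in 20.2% and 4 of the 18. The STAT motif TTCNNNGAA (8.3% of all windows) and TATAAA (13.6%) were in none of the 18. A match is a string of letters in the window and not a measured site.

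Itga1, the alpha chain of a collagen IV receptor, was 10.58, 9.94, 9.37 and 10.20 in Control, 9.22, 9.10, 8.62 and 9.79 in VALI, 9.98, 10.78 and 9.48 in PBEF+/-, and 9.49, 9.20 and 9.29 in VILI PBEF+/-. It was the only collagen-binding alpha chain above the array median. Ventilated arrays were low, with VALI replicate 3 the lowest, but Control replicate 3 reached down into their range. The 12-array average was -1.05 ± 0.21, adjusted p = 0.00285, a 2.06-fold lower level, and the 14-array average was -0.80 ± 0.24, adjusted p = 0.0542. It fell in both responses of the 12-array fit, by 1.04 ± 0.27 in VALI (adjusted p = 0.0231) and by 1.05 ± 0.32 in VILI PBEF+/- (adjusted p = 0.0352). Without PBEF+/- replicate 2, which was the highest of all arrays, the second difference was -0.65 (adjusted p = 0.257). The VALI call ended without Control replicate 4, VALI replicate 2 or VALI replicate 3 (adjusted p = 0.0575, 0.0584 and 0.0866), and the VILI PBEF+/- call without any of its 3 ventilated arrays. With the sex pattern as a covariate the 12-array average was -0.67 (adjusted p = 0.0155), but neither response alone was called (-0.67, adjusted p = 0.0527 and -0.67, adjusted p = 0.07), and a second probe set gave -0.68 ± 0.12 (adjusted p = 0.00205).

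Of the laminin-binding alpha chains Itga7 rose in the 12-array fit. Itga3 was 11.95, 11.25, 11.30 and 11.16 in Control, 11.53, 11.65, 11.48 and 11.58 in VALI, 11.63, 10.75 and 11.70 in PBEF+/-, and 11.59, 11.75 and 11.63 in VILI PBEF+/-. Its groups overlapped and its average did not pass in either fit (0.30 ± 0.17, adjusted p = 0.168 with 12 arrays), although another of its probe sets was called there (0.55 ± 0.10, adjusted p = 0.00184). Itga6, the partner of Itgb4 in the hemidesmosome, was 13.02, 12.91, 12.89 and 12.83 in Control, 13.07, 13.18, 12.72 and 12.63 in VALI, 12.74, 12.27 and 13.33 in PBEF+/-, and 13.02, 12.86 and 12.60 in VILI PBEF+/-. Its 12-array average was 0.20 ± 0.11, adjusted p = 0.168, and a second probe set gave 0.14 ± 0.11. Itga7, the laminin receptor of muscle, was 5.02, 5.66, 5.66 and 5.06 in Control, 5.67, 5.72, 5.78 and 5.73 in VALI, 5.08, 4.74 and 5.65 in PBEF+/-, and 5.69, 5.79 and 5.56 in VILI PBEF+/-. It rose in the 12-array average (0.57 ± 0.16, adjusted p = 0.0137) but not in the 14-array one (0.45 ± 0.16, adjusted p = 0.0854), and the call ended with the sex pattern as a covariate (0.31, adjusted p = 0.109) or without PBEF+/- replicate 2 (0.48, adjusted p = 0.0529). The unventilated arrays that were low for Itga7 were Control replicates 1 and 4 and PBEF+/- replicates 1 and 2. Of 5 tested skeletal muscle markers 1 rose with 12 arrays, the skeletal actin gene Acta1, with an average of 5.91 ± 0.97 (adjusted p = 0.000852). Over all genes tested 14.9% were higher in that average. The log2 of the summed marker levels was 7.83 to 8.33 in Control, 9.24 to 16.74 in VALI, 6.97 to 9.78 in PBEF+/- and 9.20 to 12.27 in VILI PBEF+/-. Control replicates 2 and 3 had Itga7 at 5.66 with Acta1 at 4.63 and 4.69, and VALI replicate 4 had Acta1 at 15.83 with Itga7 at 5.73. The part of the skeletal muscle markers in the Itga7 result was not tested.

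Itga4, which pairs with beta1 or beta7 on leukocytes and binds VCAM-1, was 9.11, 8.63, 8.57 and 9.02 in Control, 8.52, 8.45, 8.42 and 9.41 in VALI, 9.27, 9.44 and 8.74 in PBEF+/-, and 8.42, 8.16 and 8.14 in VILI PBEF+/-. VILI PBEF+/- replicates 2 and 3 were below all others, and VALI replicate 4 stood far above the other VALI arrays, at a level like those of PBEF+/- replicates 1 and 2. VILI PBEF+/- against PBEF+/- was -0.91 ± 0.27, adjusted p = 0.145 with 14 arrays although the groups did not overlap, and -1.11 ± 0.18, adjusted p = 0.00161 with 12 arrays, a 2.17-fold lower level. The VALI difference was -0.37 ± 0.15, adjusted p = 0.112 with 12 arrays. A second Itga4 probe set also fell in the 12-array average, by 0.97 ± 0.25 (adjusted p = 0.0132). Averaging all probe sets gave -0.35 (adjusted p = 0.0104).

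Itgb7, the partner of Itga4 and Itgae on gut-homing lymphocytes, was 5.21, 5.27, 5.13 and 5.26 in Control, 4.04, 4.64, 5.31 and 6.13 in VALI, 5.50, 4.79 and 4.32 in PBEF+/-, and 4.37, 4.02 and 4.07 in VILI PBEF+/-. In VILI PBEF+/- all 3 values were below the array median, so their exact level is uncertain. The 12-array average was -0.77 ± 0.22, adjusted p = 0.0154, and without PBEF+/- replicate 1 it was -0.59 (adjusted p = 0.0658). B cell markers were read beside these chains: 5 of 5 tested markers were lower in the 12-array average, against 24.6% of all genes. VALI replicate 3 had Itgb7 at 5.31, above all Control arrays, while its B cell sum lay below Control. The log2 of their summed level was 10.54 to 11.13 in Control, 9.50 to 11.91 in VALI, 10.18 to 11.48 in PBEF+/- and 8.92 to 9.98 in VILI PBEF+/-, and 9.50 to 10.20 in VALI without replicate 4. In whole lung, fewer cells of a type and less RNA per cell cannot be told apart, and the part of the B cell markers in the Itga4 and Itgb7 results was not tested. Of the T and NK cell markers 0 of 5 tested were called in the 12-array average, and 0 of 5 had an unadjusted p under 0.05.

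Itga9, a receptor for tenascin-C, was 8.77, 8.85, 8.40 and 8.13 in Control, 8.16, 8.26, 7.95 and 7.83 in VALI, 8.48, 8.82 and 8.52 in PBEF+/-, and 8.23, 8.44 and 9.64 in VILI PBEF+/-. One array, VILI PBEF+/- replicate 3, stood above all others. The average was -0.15 ± 0.23, adjusted p = 0.642 with 12 arrays, and the other 2 probe sets of Itga9 had the opposite sign (0.49 ± 0.21 and 0.61 ± 0.30, both uncalled), so no direction is given for it.

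The leukocyte chains Itgax (CD11c of dendritic cells and alveolar macrophages), its partner Itgb2, and Itgae, which binds E-cadherin, reached their highest levels in VALI arrays. Itgax was 9.05, 9.36, 9.30 and 9.63 in Control, 9.51, 9.40, 10.46 and 10.30 in VALI, 9.57, 9.68 and 9.75 in PBEF+/-, and 9.42, 9.37 and 9.43 in VILI PBEF+/-. Itgb2 was 10.09, 10.49, 10.47 and 10.49 in Control, 10.52, 10.63, 11.35 and 11.18 in VALI, 10.54, 10.55 and 10.64 in PBEF+/-, and 10.54, 10.47 and 10.57 in VILI PBEF+/-. Both were highest in VALI replicates 3 and 4, and every VALI array lay above every Control array for Itgb2. Itgae was 7.01, 7.39, 7.47 and 7.13 in Control, 7.37, 7.75, 8.56 and 7.42 in VALI, 7.67, 7.57 and 7.56 in PBEF+/-, and 7.39, 7.56 and 7.14 in VILI PBEF+/-. VALI replicate 3 was the highest of all arrays for the 3 chains. None of them passed in VALI against Control: 0.54 ± 0.17, adjusted p = 0.163 for Itgb2, 0.58 ± 0.21, adjusted p = 0.199 for Itgax and 0.52 ± 0.23, adjusted p = 0.253 for Itgae with 14 arrays. The interaction, which tests whether the 2 ventilation responses differ, was -0.84 ± 0.33, adjusted p = 0.878 for Itgax. Macrophage markers had a summed log2 level of 13.73 to 14.59 in Control, 14.54 to 15.46 in VALI, 14.52 to 14.77 in PBEF+/- and 14.49 to 14.55 in VILI PBEF+/-. Of 8 tested macrophage markers 2 rose and 1 fell in the 12-array average, where 14.9% of all genes were higher and 24.6% lower. Of 7 tested neutrophil markers 5 rose there, with a summed log2 level of 11.77 to 12.77 in Control, 11.86 to 15.66 in VALI, 11.99 to 15.42 in PBEF+/- and 15.24 to 15.39 in VILI PBEF+/-. VALI replicate 4, which was high for Itgax and Itgb2, was the VALI array at 11.86, and the other 3 were at 15.12 to 15.66. The part of both lists in the levels of the leukocyte chains was not tested.

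Of the beta chains, Itgb4, the laminin receptor chain of basal epithelium and hemidesmosomes, had the smallest p. It was 3.35, 4.06, 3.73 and 3.75 in Control, 4.86, 4.88, 4.96 and 4.70 in VALI, 4.19, 3.33 and 4.80 in PBEF+/-, and 4.83, 5.15 and 5.08 in VILI PBEF+/-. All 7 ventilated arrays, VALI replicate 4 included, lay above all 4 Control arrays and above PBEF+/- replicates 1 and 2, and PBEF+/- replicate 3 lay among the ventilated arrays. The average difference was 1.02 ± 0.20, adjusted p = 0.0289 with 14 arrays and 1.22 ± 0.18, adjusted p = 0.000493 with 12 arrays. No fold is given, since it passed the filter only through the arrays in which it was high and a difference was thus built into its selection. It rose in both 12-array responses: 1.18 ± 0.23, adjusted p = 0.007 in VALI, and 1.26 ± 0.28, adjusted p = 0.00831 in VILI PBEF+/-. The 14-array call ended in 9 of 22 alternatives, with adjusted p up to 0.0883, and the 12-array call in none of 19. Its Control values were below the array median, a level that the array measures poorly. Without PBEF+/- replicate 2 the rise in VILI PBEF+/- was 0.83 (adjusted p = 0.0752).

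Itgb1, the common partner of most alpha chains, was 12.38, 12.52, 12.46 and 12.44 in Control, 12.29, 12.51, 12.46 and 12.27 in VALI, 12.41, 11.46 and 12.50 in PBEF+/-, and 12.44, 12.38 and 12.51 in VILI PBEF+/-. All arrays but PBEF+/- replicate 2, which was lower, lay between 12.27 and 12.52. Of the other 3 Itgb1 probe sets above the array median, 2 were also lowest in that array, at 11.57 and 7.68, and 1 was highest there, at 11.05. The signs of its probe sets differed (-0.40 ± 0.17 for one of them against 0.24 ± 0.13 for the first in the 12-array average, both uncalled). Itgb5, a partner of Itgav, was 11.28, 11.20, 11.06 and 11.29 in Control, 11.01, 11.07, 10.94 and 11.31 in VALI, 11.07, 10.99 and 10.77 in PBEF+/-, and 10.84, 10.88 and 11.08 in VILI PBEF+/-, and its 12-array average was -0.15 ± 0.07, adjusted p = 0.106. On another Itgb5 probe set every VALI array (10.78 to 10.92) lay below every Control array (10.99 to 11.27). On a further one VALI replicates 1 to 3 (10.18 to 10.24) lay below Control (10.40 to 10.70), and on the remaining one VALI and Control overlapped. Itgb3, the partner of Itgav on endothelium and of Itga2b on platelets, was 6.94, 7.46, 7.35 and 7.69 in Control, 6.44, 7.07, 5.88 and 7.61 in VALI, 6.16, 6.52 and 7.32 in PBEF+/-, and 6.97, 6.60 and 5.07 in VILI PBEF+/-. It ran from 5.07 to 7.69, its groups overlapped, and the 12-array average was -0.51 ± 0.32, adjusted p = 0.225. Itgbl1, a secreted relative of the beta chains, was uncalled in both fits (-0.49 ± 0.34, adjusted p = 0.275 with 12 arrays).

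**Figure D3:**
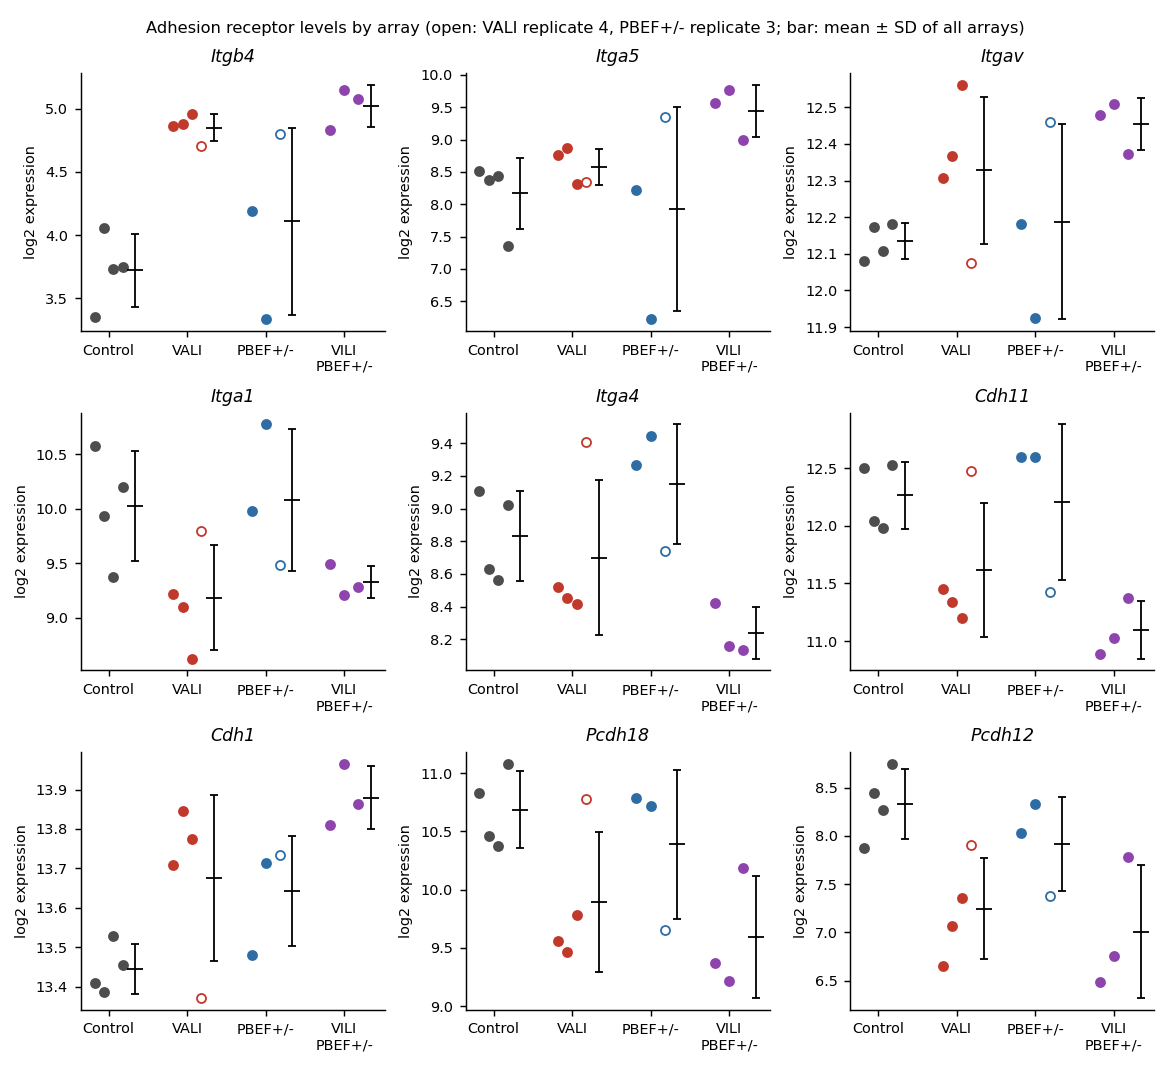
Log2 expression of 9 adhesion receptors in every array, by labelled group; open circles are VALI replicate 4 and PBEF+/- replicate 3, and bars are the mean ± SD of all arrays of the group (n = 4, 4, 3 and 3). For Cdh11 the open circles lie at 12.47 and 11.43, each within the range of the opposite condition, and for Itgb4 VALI replicate 4 lies at 4.70 with the other ventilated arrays.

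Among classical cadherins, E-cadherin rose and N-cadherin fell in the 12-array average. Cdh1, the E-cadherin of epithelial junctions, was 13.41, 13.38, 13.53 and 13.46 in Control, 13.71, 13.85, 13.77 and 13.37 in VALI, 13.48, 13.71 and 13.73 in PBEF+/-, and 13.81, 13.97 and 13.86 in VILI PBEF+/-. The range over all arrays was small, and every ventilated array except VALI replicate 4 lay above every Control array, while PBEF+/- replicate 2 overlapped the VALI arrays. The average was 0.23 ± 0.07, adjusted p = 0.064 with 14 arrays and 0.31 ± 0.06, adjusted p = 0.0018 with 12 arrays, a 1.24-fold higher level. Cdh2, the N-cadherin of mesenchymal cells and heart muscle, was 9.65, 9.04, 9.02 and 8.87 in Control, 8.26, 8.64, 7.90 and 9.64 in VALI, 9.20, 8.74 and 8.74 in PBEF+/-, and 8.88, 8.39 and 8.70 in VILI PBEF+/-. It fell in VALI with 12 arrays (-0.88 ± 0.23, adjusted p = 0.0221), a call that ended with the sex pattern as a covariate (adjusted p = 0.0518) and without VALI replicate 1 or 3 (adjusted p = 0.0705 and 0.0856), and VILI PBEF+/- against PBEF+/- was -0.31 ± 0.27, adjusted p = 0.411. Its 12-array average (-0.59 ± 0.18, adjusted p = 0.0203) lost the call without PBEF+/- replicate 1 (-0.48, adjusted p = 0.0776), without VILI PBEF+/- replicate 2 (-0.53, adjusted p = 0.0504) and with the sex pattern as a covariate (-0.59, adjusted p = 0.0685). Cdh4, R-cadherin, was 6.24, 6.15, 6.59 and 6.36 in Control, 6.23, 6.23, 5.62 and 6.61 in VALI, 6.43, 5.90 and 6.42 in PBEF+/-, and 6.25, 6.35 and 6.06 in VILI PBEF+/-, with an average of -0.13 ± 0.16, adjusted p = 0.545.

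Markers of epithelial cells were read beside Cdh1 and Itgb4. Of the alveolar type I markers 3 of 6 tested fell and 0 rose in the 12-array average, and of the type II markers 1 of 5 fell. Club and ciliated cell genes fell in 4 of 6 cases and rose in 1. Over all genes tested 14.9% were higher and 24.6% lower in that average. The summed log2 levels of the type I markers were 16.54 to 16.75 in Control, 16.27 to 16.52 in VALI, 16.24 to 16.63 in PBEF+/- and 16.28 to 16.39 in VILI PBEF+/-. For mesothelium, another cell layer with cadherins, 1 of 5 markers rose and 1 fell (Lrrn4, -0.64 ± 0.22, adjusted p = 0.0426). The one that rose was Krt19, a keratin also found in simple epithelia (1.53 ± 0.15, adjusted p = 2.88e-05).

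Cdh11, the OB-cadherin of fibroblasts and other mesenchymal cells, had the smallest p of the adhesion receptors with 12 arrays. It was 12.50, 12.04, 11.98 and 12.53 in Control, 11.45, 11.34, 11.20 and 12.47 in VALI, 12.59, 12.60 and 11.43 in PBEF+/-, and 10.89, 11.03 and 11.37 in VILI PBEF+/-. Apart from VALI replicate 4 all ventilated arrays lay below all unventilated arrays other than PBEF+/- replicate 3. The average was -0.88 ± 0.23, adjusted p = 0.0414 with 14 arrays and -1.22 ± 0.12, adjusted p = 3.56e-05 with 12 arrays, a 2.32-fold lower level. VALI against Control was -0.93 ± 0.16, adjusted p = 0.00275, and VILI PBEF+/- against PBEF+/- was -1.50 ± 0.19, adjusted p = 0.000354, both with 12 arrays. Its second probe set fell by 0.84 ± 0.12 (adjusted p = 0.000396). The 14-array call ended in 14 of 22 alternatives, with adjusted p up to 0.116, and the 12-array call in none of 19. Of 6 tested fibroblast markers 1 fell (Tcf21, -0.70 ± 0.16, adjusted p = 0.00593) and 0 rose with 12 arrays, and the summed log2 level was 15.41 to 15.56 in Control, 15.11 to 15.35 in VALI, 14.93 to 15.53 in PBEF+/- and 15.11 to 15.28 in VILI PBEF+/-. Over all genes tested 14.9% were higher and 24.6% lower in the 12-array average. The part of fibroblast markers in the Cdh11, Itga8, Itga1 and Pcdh18 results was not tested.

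Cdh13, the T-cadherin of endothelium that lacks a cytoplasmic tail, was 9.82, 8.86, 8.92 and 9.42 in Control, 8.60, 8.86, 8.00 and 9.38 in VALI, 9.31, 8.54 and 9.02 in PBEF+/-, and 8.66, 8.83 and 8.60 in VILI PBEF+/-. With 12 arrays every VALI array lay below every Control array, but VALI replicate 2 (8.8557) and Control replicate 2 (8.8595) nearly touched. The difference was -0.77 ± 0.27, adjusted p = 0.0768. On a second Cdh13 probe set VALI replicates 1 to 3 (7.65 to 8.52) overlapped Control (8.22 to 9.59). Cdh16, a cadherin best known from kidney epithelium, was 6.04, 7.38, 7.20 and 7.69 in Control, 6.57, 7.15, 6.15 and 5.84 in VALI, 6.19, 6.87 and 7.09 in PBEF+/-, and 6.40, 7.04 and 6.47 in VILI PBEF+/-, with overlapping groups and an average of -0.17 ± 0.29, adjusted p = 0.665.

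Of the 7 tested non-clustered protocadherins, 4 fell in the 12-array average, where 24.6% of all genes tested were lower. Pcdh12, the vascular endothelial cadherin-2, was 7.87, 8.44, 8.26 and 8.75 in Control, 6.66, 7.07, 7.36 and 7.90 in VALI, 8.03, 8.33 and 7.38 in PBEF+/-, and 6.48, 6.75 and 7.79 in VILI PBEF+/-. VALI replicate 1 and VILI PBEF+/- replicate 1 were lowest, and VILI PBEF+/- replicate 3 was nearly as high as the lowest Control array. The average was -0.99 ± 0.25, adjusted p = 0.0395 with 14 arrays and -1.24 ± 0.24, adjusted p = 0.00214 with 12 arrays, a 2.36-fold lower level. The 14-array call ended in 13 of 21 alternatives, and the 12-array call in none of 18. In single comparisons with 12 arrays the VILI PBEF+/- call of Pcdh12 ended in 7 of 18 alternatives, among them leaving out either PBEF+/- array (adjusted p = 0.0565 and 0.163), VILI PBEF+/- replicate 1 or 2 (0.118 and 0.105) or VALI replicate 2 (0.0509), and the VALI call without VALI replicate 1 (adjusted p = 0.0688). Pcdh18 was 10.83, 10.46, 10.37 and 11.08 in Control, 9.56, 9.47, 9.78 and 10.78 in VALI, 10.79, 10.72 and 9.66 in PBEF+/-, and 9.37, 9.22 and 10.19 in VILI PBEF+/-. In the 12-array fit its ventilated arrays lay below all unventilated ones, and its average of -1.12 ± 0.18, adjusted p = 0.000716 was matched in sign by a second probe set (-1.46 ± 0.23, adjusted p = 0.000906).

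Pcdh17 was 10.89, 10.24, 10.44 and 10.96 in Control, 10.41, 10.49, 9.91 and 11.13 in VALI, 11.03, 11.17 and 9.93 in PBEF+/-, and 9.88, 9.94 and 10.10 in VILI PBEF+/-. VALI replicates 1 and 2 lay within the Control range, and VILI PBEF+/- against PBEF+/- was -1.13 ± 0.22, adjusted p = 0.00488 while VALI against Control was -0.36 ± 0.19, adjusted p = 0.209. On a second Pcdh17 probe set VALI replicates 1 to 3 were 8.71, 8.85 and 8.67, below every Control array (9.17 to 9.84), and VALI replicate 4 was 9.56. No direction in VALI is thus settled for Pcdh17. The X-linked Pcdh19 was 8.14, 7.84, 7.37 and 7.75 in Control, 6.96, 6.98, 7.21 and 8.23 in VALI, 8.18, 7.94 and 7.19 in PBEF+/-, and 7.14, 7.19 and 7.24 in VILI PBEF+/-. It fell by 0.80 ± 0.13 in the 12-array average (adjusted p = 0.0009), and by 0.73 ± 0.17 in VALI alone (adjusted p = 0.0148). The VALI difference was -0.43 on the mean of all probe sets, and its call ended without VALI replicate 1 or 2 (adjusted p = 0.0635 and 0.0613). Pcdh17, Pcdh18 and Pcdh19 belong to the delta group of protocadherins, whose cytoplasmic tails bind a regulator of actin assembly.

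Pcdh20 moved the other way. It was 3.34, 3.38, 3.39 and 3.45 in Control, 5.69, 6.84, 4.09 and 3.08 in VALI, 3.38, 3.35 and 6.05 in PBEF+/-, and 5.55, 5.02 and 3.61 in VILI PBEF+/-. All Control arrays and PBEF+/- replicates 1 and 2 lay between 3.34 and 3.45, well below the array median, and the 3 VALI arrays other than replicate 4 ranged from 4.09 to 6.84. The 12-array average was 1.75 ± 0.44, adjusted p = 0.00908 and a second probe set gave 1.99 ± 0.40 (adjusted p = 0.0035). Since the gene passed the filter only through high arrays, and its low arrays are at background, the size is not a measured fold. Pcdh1, a protocadherin of airway epithelium, ran from 9.39 to 10.57 and was uncalled (-0.30 ± 0.19, adjusted p = 0.22 with 12 arrays). Pcdh7 averaged -0.42 ± 0.18, adjusted p = 0.0799, with a second probe set of opposite sign.

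Endothelial markers gave a mixed picture beside Pcdh12 and Cdh13. Of 7 tested, 1 rose (Cldn5, 0.32 ± 0.12, adjusted p = 0.0466) and 2 fell with 12 arrays: Kdr, the main VEGF receptor, by 1.16 ± 0.18 and the transcription factor gene Sox18 by 0.76 ± 0.12. Over all genes tested 14.9% were higher and 24.6% lower in the 12-array average. The summed log2 level of the endothelial markers was 14.91 to 15.10 in Control, 14.54 to 14.93 in VALI, 14.56 to 15.03 in PBEF+/- and 14.82 to 14.88 in VILI PBEF+/-. Their part in the Pcdh12 result was not tested.

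The 8 tested clustered protocadherins, 7 of the beta cluster and Pcdhgc4 of the gamma cluster, gave 1 call in the 12-array average, where 39.5% of all genes tested were called. These genes are related in sequence, so some of their probe sets may share signal, which was not tested. Pcdhgc4 was 7.59, 7.04, 6.75 and 6.62 in Control, 7.24, 7.29, 7.43 and 7.26 in VALI, 7.34, 6.28 and 7.57 in PBEF+/-, and 7.85, 7.52 and 7.72 in VILI PBEF+/-. Its 12-array rise (0.60 ± 0.21, adjusted p = 0.0388) ended in 12 of 19 alternatives and was 0.34 without PBEF+/- replicate 2 (adjusted p = 0.19). Pcdhb16 and Pcdhb3 fell in VILI PBEF+/- against PBEF+/- with 12 arrays (-0.48 ± 0.16, adjusted p = 0.044 and -1.51 ± 0.46, adjusted p = 0.0335), and both calls ended without either of several arrays, for example -0.31 (adjusted p = 0.246) for Pcdhb16 without PBEF+/- replicate 2. The other 5 (Pcdhb9, Pcdhb17, Pcdhb20, Pcdhb21 and Pcdhb22) were uncalled in all 6 comparisons of both fits. The 6 probe sets that several alpha-cluster genes share were not assigned to a gene, and 2 of them exceeded the array median in at least 3 arrays, one with values of 8.71 to 9.67 over the 14 arrays.

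Taken 1 comparison at a time, VALI against Control called 0 of 39 genes in the 14-array fit in limma (0% of all genes), with 9 of 39 at an unadjusted p under 0.05 against 18.3% of all genes, and 10 of 39 in the 12-array fit, against 17% of all genes (6.53% higher and 10.5% lower). Cdh1, Itgav, Itgb4 and Pcdh20 rose, and Cdh2, Cdh11, Itga1, Pcdh12, Pcdh18 and Pcdh19 fell. Leaving out VALI replicate 1 gave 6 of the 39 genes (985 of all genes), and leaving out VALI replicate 2 gave 5 (1039 of all genes). VILI PBEF+/- against PBEF+/- called 0 of 39 with 14 arrays (0% of all genes, and 7 of 39 unadjusted against 20.7%) and 16 of 39 with 12 arrays, against 26.4% of all genes (11.2% higher and 15.3% lower). Cdh1, Itga5, Itgav, Itga7 and Itgb4 rose there, and Cdh11, Itga8, Itga4, Itga1, Itgb7, Pcdhb16, Pcdhb3, Pcdh12, Pcdh17, Pcdh18 and Pcdh19 fell. The VILI PBEF+/- calls of Itgb7, Itga7 and Itga8 ended in 13, 7 and 4 of 19 alternatives, and the VALI call of Pcdh20 in 4 of 18. The count for VILI PBEF+/- was 7 without VILI PBEF+/- replicate 1 or without VILI PBEF+/- replicate 2, with 1820 and 1908 of all genes called.

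These 2 responses share no array. Of the 10 genes called in VALI and the 16 called in VILI PBEF+/- with 12 arrays, 8 were in both lists, which is 80% of the first and 50% of the second, against 68% and 43.8% over all genes. They were Cdh1, Cdh11, Itga1, Itgav, Itgb4, Pcdh12, Pcdh18 and Pcdh19, each with the same sign in both. Itgb4, and Pcdh20 in the VALI list, passed the filter only through arrays in which they were high. The shares that count them thus describe the lists and are no support for an agreement of both responses. Both calls were kept under all alternatives for Cdh11 and Pcdh18, while at least 1 of both ended under some alternative for the other 6. The VILI PBEF+/- call of Cdh1 ended in 7 of 19 alternatives, with a difference of 0.17 (adjusted p = 0.194) without PBEF+/- replicate 1, and that of Itgav in 3 of 19. The same sign was seen in 26 of 39 genes (66.7%), against 76.1% of all genes. The correlation of both responses across the 39 genes was r = 0.68 with 12 arrays and 0.63 with 14, against 0.79 and 0.68 across all genes, and genes are not independent replicates.

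**Figure D4:**
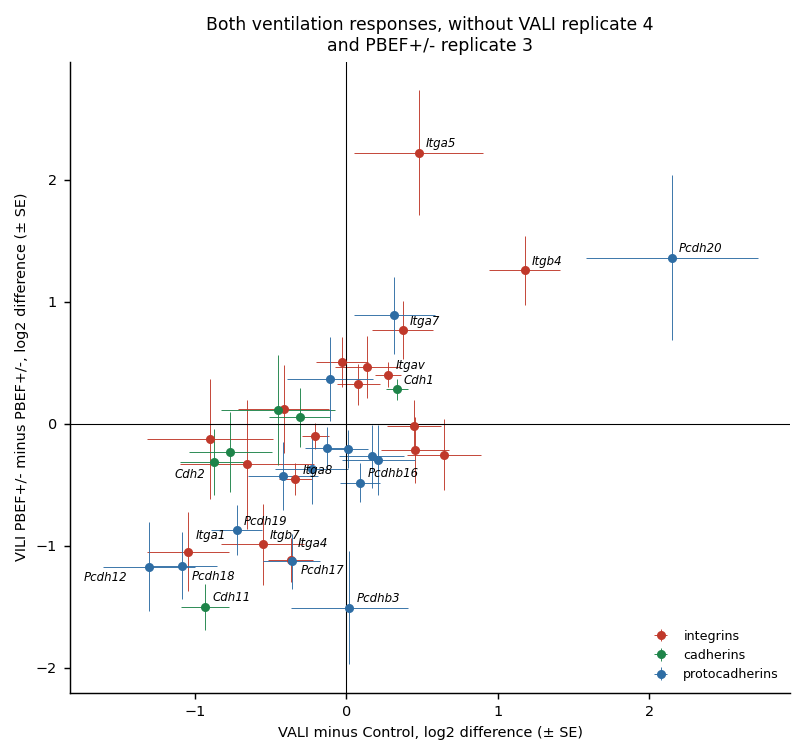
Log2 difference of VALI minus Control against that of VILI PBEF+/- minus PBEF+/- in the 12-array fit, with standard errors, for the 39 tested genes; labelled genes passed an adjusted p of 0.05 in at least 1 of both. Cdh11, Itga1, Pcdh12, Pcdh18 and Pcdh19 lie in the lower left and Itgb4, Itgav and Cdh1 in the upper right, while Itga5 lies at 0.48 and 2.22.

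A difference between PBEF+/- and Control in adhesion receptors was not detectable with these arrays. PBEF+/- against Control called 0 of 39 genes in both fits (0% of all genes in both), with 2 of 39 genes at an unadjusted p under 0.05 in the 14-array fit (8.26% of all genes) and 4 of 39 in the 12-array fit (11.1%). The smallest p belonged to Pcdhb16 in both (0.41 ± 0.16, adjusted p = 0.593 and 0.59 ± 0.15, adjusted p = 0.45). Without PBEF+/- replicate 1 as well only 1 array is left in that group, so no count is given for that fit. VILI PBEF+/- against VALI called 0 of 39 in both fits (0% and 0.114% of all genes), with 4 and 0 of the 39 genes at an unadjusted p under 0.05 (10.5% and 7.55% of all genes). The largest of these was Itga9 with 14 arrays (0.72 ± 0.29, adjusted p = 0.447).

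The interaction called 0 of 39 genes in both fits (0% of all genes in both), with 4 and 7 of the 39 genes at an unadjusted p under 0.05 (5.58% and 10.4% of all genes). Its smallest p with 12 arrays was that of Itga4 (-0.75 ± 0.23, adjusted p = 0.388), followed by Pcdhb16 and Itga5 (1.74 ± 0.66, adjusted p = 0.448). Itga5 is thus not shown to respond differently in the 2 ventilated groups.

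The RNA levels of genes whose proteins integrins bind changed in both directions. Of 22 tested ligand genes 4 rose and 4 fell in the 14-array average, and 7 rose and 5 fell in the 12-array average, with a median of 0.15 against -0.07 over all genes. Over all genes tested 4.09% were higher and 4.27% lower with 14 arrays, and 14.9% and 24.6% with 12 arrays. Thbs1, the gene of thrombospondin-1, rose by 1.68 ± 0.47 with 14 arrays (adjusted p = 0.0457) and 2.41 ± 0.18 with 12 arrays (adjusted p = 4.23e-06). The fibrinogen chain genes Fgg and Fga rose (2.40 ± 0.58, adjusted p = 0.0364 and 2.31 ± 0.66, adjusted p = 0.0495 with 14 arrays), and so did Icam1, the counter-receptor of beta2 integrins (0.34 ± 0.09, adjusted p = 0.0408). Tnc (tenascin-C), Lama5 (a laminin chain) and Col4a1 (collagen IV) rose in the 12-array fit (1.87 ± 0.33, 0.91 ± 0.18 and 0.44 ± 0.11). Icam2, Npnt, Lama3 and Postn fell in both fits, with -0.36 ± 0.07, adjusted p = 0.028 for Icam2 at 14 arrays. Fn1, the gene of fibronectin, was level at 0.03 ± 0.07, adjusted p = 0.8, and Vcam1, the counter-receptor of Itga4, was 0.22 ± 0.08, adjusted p = 0.052.

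Focal adhesion genes include the adaptors between integrins and actin. Of 25 tested, 0 rose and 3 fell with 14 arrays: Lims1 (-0.40 ± 0.10, adjusted p = 0.0367), Tns3 (-0.61 ± 0.16, adjusted p = 0.0395) and Parva (-0.24 ± 0.07, adjusted p = 0.0433), 3 proteins of the complex that ties integrins to actin. With 12 arrays 4 rose (Actn1, Actn4, Ilk and Bcar1) and 5 fell (those 3, Tln2 and Cd151), with a median of -0.05. The largest of the rises was that of Bcar1, a scaffold phosphorylated on stretch (0.67 ± 0.19, adjusted p = 0.0152). Over all genes tested 4.09% were higher and 4.27% lower with 14 arrays, and 14.9% and 24.6% with 12 arrays.

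Catenins, desmosomal partners and atypical cadherins of the second list were mostly uncalled: of 17 tested, 2 rose and 0 fell with 14 arrays, and 3 rose and 1 fell with 12. Over all genes tested 4.09% were higher and 4.27% lower with 14 arrays, and 14.9% and 24.6% with 12 arrays. The desmosomal genes Dsc2 (1.59 ± 0.41, adjusted p = 0.0395) and Pkp3 (0.50 ± 0.14, adjusted p = 0.0487) rose in both fits, and no ventilated array overlapped the unventilated ones for Dsc2. Fat4, a giant atypical cadherin, fell by 0.996 ± 0.107 with 12 arrays (adjusted p = 5.49e-05). Ctnnb1, the gene of beta-catenin, was -0.02 ± 0.06, adjusted p = 0.819. Among proteases that cut cadherins 1 of 7 tested rose with 12 arrays (Mmp9, 2.01 ± 0.42, adjusted p = 0.00351) and 1 fell (Adam10, -0.17 ± 0.06, adjusted p = 0.0331). Of all genes 14.9% were higher and 24.6% lower there.

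Of 6 tested genes that regulate cadherin transcription, 0 rose and 1 fell with 14 arrays (Snai2, -0.65 ± 0.18, adjusted p = 0.0461), where 4.27% of all genes were lower, and 1 rose and 4 fell with 12 arrays, where 24.6% of all genes were lower. Snai1 rose (0.92 ± 0.25, adjusted p = 0.0145). Snai2, Zeb1 and Zeb2, which like Snai1 repress E-cadherin, fell (-0.85 ± 0.16, -0.33 ± 0.09 and -1.04 ± 0.20), and Grhl2, which maintains E-cadherin, fell by 0.95 ± 0.11. The median of these 6 genes was -0.59 with 12 arrays, against -0.07 over all genes.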

How the data were processed

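The authors deposited log2 expression values of 45101 probe sets on each Affymetrix mouse array. Per the submitters' processing notes MAS5 and GCRMA were used, with role and version not given in the sources used here. The values run from 0.446 to 16.15 with none missing, which fits a log2 scale, and were not scaled again. Per the labels' protocols RNA was extracted with Trizol and 6 µg was labelled for each array. Depth is not defined for arrays, and their number limits the precision.

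Groups came from the sample titles. Probe sets were named from the platform annotation: 34958 had 1 symbol, 932 had several and 9211 had none. Those with 1 symbol were used, and 34754 matched RefSeq by Entrez identifier with 0 symbols changed. Of 18194 genes, 11360 were tested, those whose brightest probe set lay above the median of 3 or more arrays. A linear model with the 4 groups and a variance trend was fitted in limma 3.58.1 (R 4.3.3), and p-values were adjusted by Benjamini-Hochberg over all genes tested. Each ± after a log2 difference is its standard error. The model script was tested on simulated data. Alternatives were no filter, a filter of 7 arrays, quantile normalization, no variance trend, the mean of all probe sets, the replicate number as a block, the sex pattern as a covariate and leaving out each array. Every integrin and classical cadherin that passed the filter is named with values, with any member called and the 10 with the smallest p in a comparison, and of each other list those with the smallest p or called. The genes, lists and the 2 arrays left out were chosen with earlier results of these data known. Replicate numbers did not pair the arrays. Figures were drawn with matplotlib 3.10.9.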

Additional observations from a re-analysis of the deposited data

Results flagged for a closer look

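In groups of 4 arrays, the gap of the highest or lowest array to its nearest neighbour was set against the range of the group by Dixon's rule, for the 39 tested genes in Control and VALI. Of 78 groups 3 passed, and chance alone flags about 1 in 20 groups. Itga5 in Control replicate 4 was 7.36, against 8.37 to 8.51 in the other Control arrays. Itga4 in VALI replicate 4 was 9.41, against 8.42 to 8.52 in the other VALI arrays. Itgb2 in Control replicate 1 was 10.09, against 10.47 to 10.49 in the other Control arrays.

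Control probe sets for 18S ribosomal RNA, which no comparison used, averaged 5.18 in VALI replicate 3 and 5.49 in PBEF+/- replicate 2, above the 3.16 to 3.56 of the Control arrays. PBEF+/- replicate 2 was the lowest of all arrays for Itga5, Itgb1, Itga6 and Itga3, and VALI replicate 3 was the highest for Itgax, Itgb2 and Itgae. PBEF+/- replicate 2 was also the lowest for Itgb4, Itgav, Itga7 and Pcdhgc4, and the highest for Cdh11, Itga1, Itga4 and Pcdh17. For the other genes called in the 12-array average, Itga5 apart, it was neither. In the 12-array fit the only other PBEF+/- array was replicate 1. The part of this array in those calls was not tested beyond leaving it out.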

How the results depend on the processing

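No called value changed sign, while some uncalled ones did. The 14-array average called 3 members, and 1 with no filter on low values, 5 with the replicate block, 0 with the sex pattern as a covariate and 17 without VALI replicate 4 and PBEF+/- replicate 3. Without those 2 arrays VALI against Control called 10 instead of 0 and VILI PBEF+/- against PBEF+/- 16 instead of 0. With 12 arrays VALI against Control called 6 instead of 10 with the sex pattern as a covariate, and VILI PBEF+/- against PBEF+/- called 9 instead of 16 both with that covariate and with no filter. Leaving out each array in turn gave 0 to 4 members for VALI against Control, 0 to 9 for VILI PBEF+/- against PBEF+/-, 0 to 14 for the average and 0 for the other 3 comparisons with 14 arrays. All genes called there numbered 0 to 680, 0 to 2157 and 0 to 3419 for the first 3. With 12 arrays and both PBEF+/- arrays kept, it gave 5 to 11, 7 to 16 and 15 to 18 for the same 3 comparisons. All genes called there numbered 985 to 2144, 1820 to 3158 and 3613 to 4550. The other 3 comparisons gave 0 members. Fits with 1 remaining PBEF+/- array, assumed to vary like the other groups, are not counted here. All other alternatives kept the counts within 1.5 times. The 12-array alternatives on filter, normalization, trend and probe sets were added after seeing the data.

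Same-numbered arrays did not deviate together (7 of 19 pairs with a correlation over 0.1, from -0.352 to 0.316), so the numbers do not pair them. With the replicate block the 12-array fit called 9 members for VALI against Control, 13 for VILI PBEF+/- against PBEF+/- and 17 for the average, and 0 for the other 3 comparisons. Members near the array median (Itgb4, Itgb7, Pcdh20, Pcdhb3 and Pcdhb21) have values close to background, which limits their folds. Sex pattern, age and the 2 doubted arrays overlap with the groups, and their parts were not separated beyond the fits above.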
